A study of Mus musculus with 12 samples.

Results

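Cholesterol synthesis and SREBP2 target genes were read in the liver of 12 male mice. The set holds 28 named genes: 19 enzymes that lead from acetyl-CoA to cholesterol, 4 genes of SREBP2 control (Srebf2, Scap, Insig1 and Insig2), and 5 genes of sterol uptake, transfer and export (Stard4, Npc1l1, Mylip, Abcg5 and Abcg8). The genes were named for their place in the pathway, with earlier results of these data known, and were found by gene symbol. All 28 were found among the 14944 genes that the deposited tables list, and 27 were measured in every library.

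Each group held 3 independent C57BL/6 mice. The DEN labelled knockout group carried the label Otud3 knockout and had received diethylnitrosamine (DEN), a carcinogen that liver enzymes turn into a DNA-damaging agent, as 1 intraperitoneal dose of 25 mg/kg at 15 days of age, with tissue taken 30 weeks later. The DEN WT group held wild-type (WT) littermates given the same dose. The No DEN labelled knockout and No DEN WT groups held mice of the same genotype labels without DEN. Otud3 encodes a deubiquitinase, and the series asks how its loss bears on DEN-induced liver cancer. The labels do not give the deleted part of Otud3, the age or any sham injection of the mice without DEN, the hour of collection, or whether a given piece of tissue was tumour. DEN therefore cannot be told apart from such differences in age or handling.

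Cholesterol is built from acetyl-CoA by way of mevalonate, isoprenoid diphosphates, squalene and lanosterol, and the liver is a main site of this synthesis. When sterols in the endoplasmic reticulum run low, SCAP escorts the transcription factor precursor SREBP2 to the Golgi, where it is cleaved, and its free amino-terminal part switches on most enzymes of the pathway. The INSIG proteins hold SCAP in the endoplasmic reticulum when sterols are plentiful. Excess sterol acts through the nuclear receptor LXR, whose known targets include Mylip, Abcg5 and Abcg8.

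Libraries held 29668861 to 31111765 counts. Otud3 itself stood at 7.39 to 15.7 CPM (counts per 1000000 counts of the library, after TMM scaling) in the 6 libraries labelled knockout and at 10.8 to 18.4 CPM in the 6 WT libraries, so the ranges overlapped and the groups are called by their label. DEN WT replicate 2 stood apart. Its score on the first principal component was 129.4, against at most 13.73 in the other 11 libraries. Its 7 measured pericentral hepatocyte markers summed to 118.9 TPM (transcript abundance scaled for gene length and depth), against 6231 to 9974 TPM in the others. Its 9 measured general hepatocyte markers summed to 135693 TPM, against 72318 to 120923 TPM in the others. DEN libraries also held more endothelial marker RNA, with sums of 111.0 to 155.0 TPM, against 27.45 to 63.37 TPM without DEN. The 8 Kupffer cell and macrophage markers summed to 85.36 to 628.0 TPM with DEN and to 21.98 to 91.34 TPM without, and 7 stress genes (heat shock and immediate early genes) summed to 65.05 to 319.7 TPM with DEN and to 23.74 to 54.81 TPM without. In bulk tissue, fewer cells of a type and less RNA per cell cannot be told apart, and the part of these shifts in the results below was not tested.

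Promoter windows show the letters through which the pathway is known to be read. SREBP2 binds sterol regulatory elements and works beside NF-Y, which binds CCAAT. RefSeq (GRCm38.p6) held windows of 300 bases, 250 before and 50 after a gene start, for 24 of the 28 members. Both strands were searched for CACNCCAC, the core of the sterol regulatory element, and for CCAAT. The NF-Y motif lay in a window of 22 of the 24 members (91.7%), against 43.1% of the 10348 tested genes that have a window and 37.4% of all 32851 windows. CACNCCAC lay in a window of 3 of the 24 (12.5%), namely Acat2, Hmgcs1 and Insig1, against 7.67% of tested genes and 6.24% of all windows. A match is a description of letters, and its absence says only that they are not in this window. The windows below belong to members whose values carry the results: an enzyme and a control gene of the classic SREBP2 response, the member that fell most with DEN at the upstream and at a downstream start of its 3 listed starts, and the member that rose most among those called. Capitals mark CACNCCAC or CCAAT on either strand, 5′ to 3′ on the strand of the gene.
Hmgcs1, chr13:119690101-119690400, plus strand: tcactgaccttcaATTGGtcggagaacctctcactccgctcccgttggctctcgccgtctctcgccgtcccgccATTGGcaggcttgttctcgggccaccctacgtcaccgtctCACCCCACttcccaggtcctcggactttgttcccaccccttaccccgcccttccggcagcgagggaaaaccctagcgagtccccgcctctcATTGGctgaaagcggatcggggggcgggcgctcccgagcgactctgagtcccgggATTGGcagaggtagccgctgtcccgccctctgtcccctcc
Insig1, chr5:28071162-28071461, plus strand: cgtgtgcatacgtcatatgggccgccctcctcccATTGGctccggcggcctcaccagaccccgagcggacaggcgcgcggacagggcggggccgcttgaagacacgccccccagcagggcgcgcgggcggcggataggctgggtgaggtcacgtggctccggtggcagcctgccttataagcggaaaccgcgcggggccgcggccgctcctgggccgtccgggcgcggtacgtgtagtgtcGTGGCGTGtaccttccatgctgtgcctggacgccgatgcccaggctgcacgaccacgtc
Insig2 upstream start, chr1:121332540-121332839, minus strand: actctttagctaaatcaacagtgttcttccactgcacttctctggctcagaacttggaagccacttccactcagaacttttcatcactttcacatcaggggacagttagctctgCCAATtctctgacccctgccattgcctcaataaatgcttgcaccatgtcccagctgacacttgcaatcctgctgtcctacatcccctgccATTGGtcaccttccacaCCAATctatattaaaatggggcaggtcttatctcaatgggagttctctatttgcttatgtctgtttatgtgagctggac
Insig2 downstream start, chr1:121327975-121328274, minus strand: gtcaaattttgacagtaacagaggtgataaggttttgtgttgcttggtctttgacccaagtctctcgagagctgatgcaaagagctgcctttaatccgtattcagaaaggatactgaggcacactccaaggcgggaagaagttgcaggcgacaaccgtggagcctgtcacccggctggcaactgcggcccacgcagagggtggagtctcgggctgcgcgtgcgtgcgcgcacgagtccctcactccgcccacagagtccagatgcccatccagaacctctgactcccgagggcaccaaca
Mylip, chr13:45389492-45389791, plus strand: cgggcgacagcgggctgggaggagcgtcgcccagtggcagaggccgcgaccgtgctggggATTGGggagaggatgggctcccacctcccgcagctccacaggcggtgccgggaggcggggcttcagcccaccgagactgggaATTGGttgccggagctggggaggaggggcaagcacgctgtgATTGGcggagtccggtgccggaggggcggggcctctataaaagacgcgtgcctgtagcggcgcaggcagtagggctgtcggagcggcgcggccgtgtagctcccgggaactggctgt

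The Hmgcs1 window held the sterol element core at base -136 from the gene start and 4 CCAAT matches. The Insig1 window held the core on the opposite strand at base -9 and 1 CCAAT match. Mylip had 3 CCAAT matches and no core. The upstream Insig2 window had 3 CCAAT matches and no core, and the downstream one had neither. In mouse liver, Insig2 is known to be read from alternative starts, with a liver-enriched transcript that insulin lowers. The deposited counts are per gene and do not separate starts.

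Members differed widely in level. On the TPM scale, median levels over the 12 libraries were highest for Fdps (281 TPM), Ebp (214 TPM), Sc5d (168 TPM), Insig1 (130 TPM) and Tm7sf2 (115 TPM). They were lowest for Mylip (2.39 TPM), Ggps1 (2.52 TPM) and Srebf2 (9.74 TPM) among the 27 measured throughout. Npc1l1, a sterol importer of the gut that mouse liver is known to make little of, was listed in DEN labelled knockout livers alone, at 0.010, 0.010 and 0.110 TPM, from 1, 1 and 12 counts. The tables list a gene only where all 3 libraries of a group reach 0.01 TPM, so its absence from the other groups is not a measured 0, and no comparison was made.

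**Figure D1:**
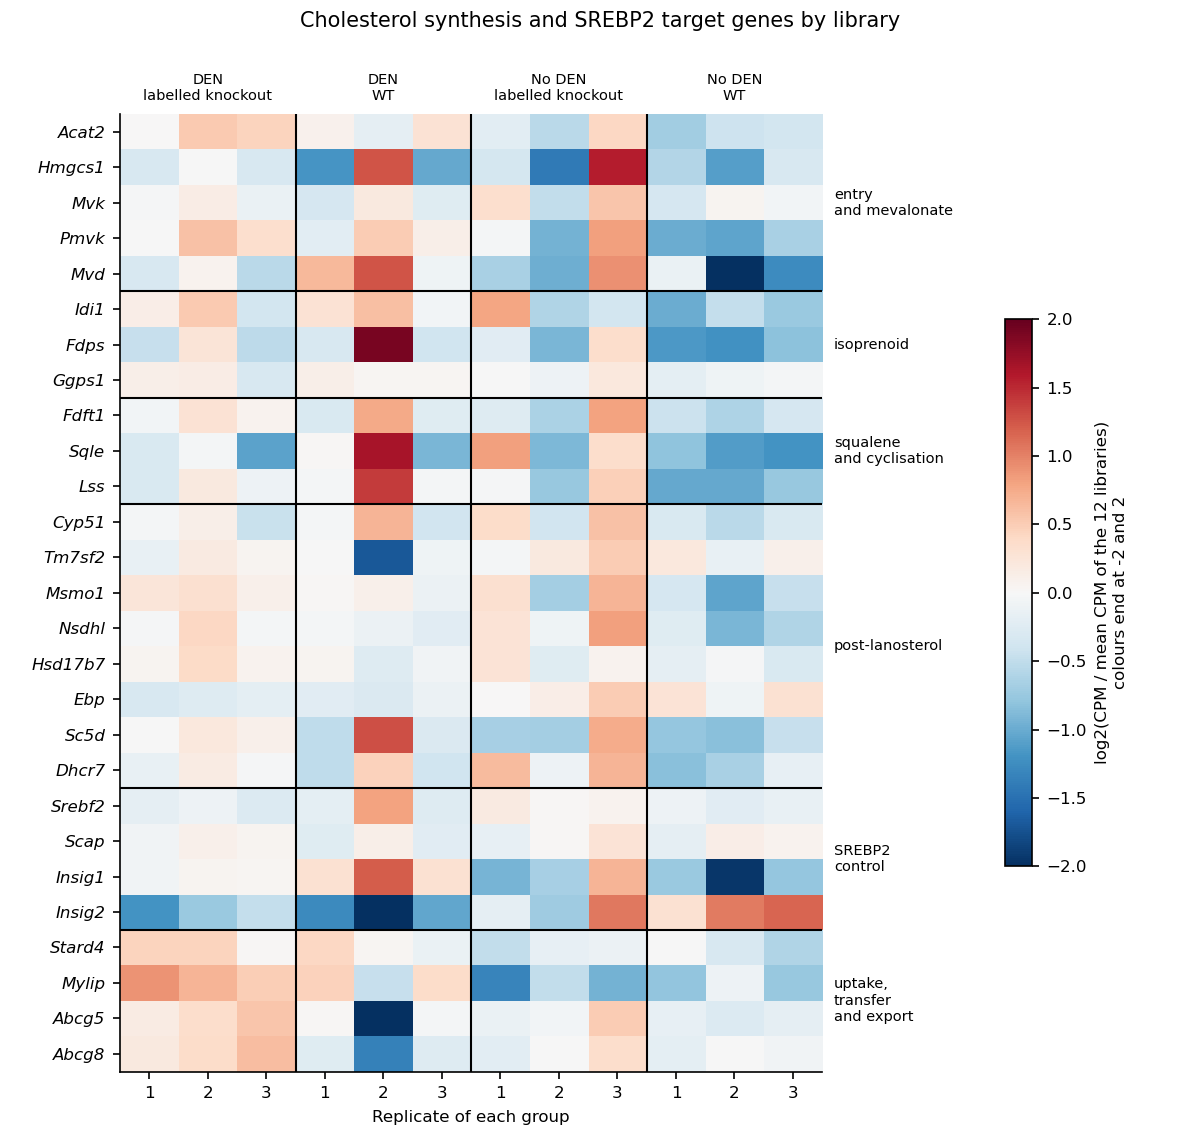
Level of 27 members (lines of the map, grouped by step) in the 12 libraries (columns, by group and replicate), as log2 of CPM over the mean CPM of the 12 libraries, with colours ending at -2 and 2. Replicate 2 of DEN WT and replicate 3 of No DEN labelled knockout are the reddest columns among the enzymes, and Insig2 is blue in all 6 DEN libraries.

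Insig2 and Mylip had the largest mean DEN effects of the 27 members. Averaged over both genotypes on the TMM scale, Insig2 and Ebp were lower with DEN, and Mylip and Stard4 were higher. That makes 4 of 27 members called at an edgeR adjusted p under 0.05 (14.8%), against 16.5% of all 12909 genes tested (8.40% higher and 8.10% lower). The share is close to the background. The other 23 members, 18 of the 19 enzymes among them, did not pass, and 9 members had an unadjusted p under 0.05, against 35.9% of all genes. The median log2 fold change with DEN was 0.10 over the members and 0.31 over the enzymes, against 0.0057 over all genes. With library size in place of TMM as the scale, the median of all genes moved by 0.27, and 9 members were called, against 29.9% of all genes; 93.7% of all called genes were then higher with DEN, against 50.9% with TMM.

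The SCAP anchor Insig2 (chr1:121304353-121332662) fell with DEN. It had 58.0, 79.0 and 95.4 CPM in DEN labelled knockout livers and 54.8, 33.2 and 64.4 CPM in DEN WT livers. In mice without DEN it had 117, 80.9 and 274 CPM in labelled knockout livers and 164, 271 and 297 CPM in WT livers. Every DEN WT library lay below every No DEN WT library, while among labelled knockouts the highest DEN library passed the lowest No DEN one. The mean DEN effect on Insig2 was -1.64 ± 0.31 (log2, SE; edgeR adjusted p = 0.0106), and the call held in all 21 alternatives, between -1.80 and -1.23. In labelled knockout livers Insig2 averaged 77.5 ± 18.7 CPM with DEN and 157 ± 103 CPM without (SD, n = 3 each), a log2 fold change of -1.02 ± 0.43 that did not pass (edgeR adjusted p = 0.237). Without No DEN labelled knockout replicate 3 it was -0.35 ± 0.34. In WT livers alone, Insig2 averaged 50.8 ± 16 CPM with DEN and 244 ± 70.6 CPM without (SD, n = 3 each), a log2 fold change of -2.27 ± 0.45 (edgeR adjusted p = 0.0353). That call was lost in 9 of 22 alternatives, whose adjusted p ran between 3.94e-05 and 0.160 over all 22. It was lost without DEN WT replicate 1 or 2, when any single No DEN WT or DEN labelled knockout library was left out, and with only the groups compared, while the log2 fold change stayed between -2.49 and -2.03 in all 22. The difference between these DEN effects was 1.25 ± 0.61 (edgeR adjusted p = 0.735).

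Insig1 (chr5:28071412-28078662), the SCAP anchor that SREBP2 itself switches on, stood at 225, 246 and 244 CPM in DEN labelled knockout livers and at 294, 547 and 294 CPM in DEN WT livers. Without DEN it stood at 124, 150 and 378 CPM in labelled knockout livers and at 142, 61.7 and 139 CPM in WT livers. All DEN WT libraries lay above all No DEN WT libraries, and 1 library without DEN, labelled knockout replicate 3, lay among the DEN values. With DEN, Insig1 differed by 0.13 ± 0.44 (log2) in labelled knockout livers, at an edgeR adjusted p of 0.904. In WT livers it differed by 1.73 ± 0.46, at an edgeR adjusted p of 0.0596. Neither passed, nor did the mean DEN effect of 0.93 ± 0.32 (edgeR adjusted p = 0.0651). Without No DEN labelled knockout replicate 3 the mean DEN effect on Insig1 was 1.26 ± 0.26 and passed (edgeR adjusted p = 0.0192; range over 21 alternatives 0.00429 to 0.127). The WT difference passed in 6 of 22 alternatives. An annotated lncRNA, Gm35223, covers the whole interval of Insig1, and without a stated strand setting their reads cannot be told apart.

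Srebf2 (chr15:82147269-82205379), which encodes SREBP2 and hosts Mir33 in an intron, varied little outside 1 library. It had 37.5, 39.9 and 35.4 CPM in DEN labelled knockout livers and 37.3, 74.8 and 35.6 CPM in DEN WT livers. Without DEN it had 48.6, 43.5 and 44.7 CPM in labelled knockout livers and 40.0, 36.4 and 38.7 CPM in WT livers. The 74.8 CPM of DEN WT replicate 2 was the outlying value, and the other 11 libraries lay between 35.4 and 48.6 CPM. In CPM, all 3 DEN labelled knockout libraries lay below all 3 No DEN labelled knockout libraries, by a log2 fold change of -0.28 ± 0.24 (edgeR adjusted p = 0.565). In TPM the order was the reverse, at 10.8, 11.3 and 10.2 TPM with DEN and 9.73, 9.44 and 9.24 TPM without. With library size scaling the log2 fold change was 0.0041, so the direction depended on the scale. Scap, the escort itself, lay between 88.1 and 126 CPM in all 12 libraries, with a mean DEN effect of -0.073 ± 0.11 (edgeR adjusted p = 0.657).

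**Figure D2:**
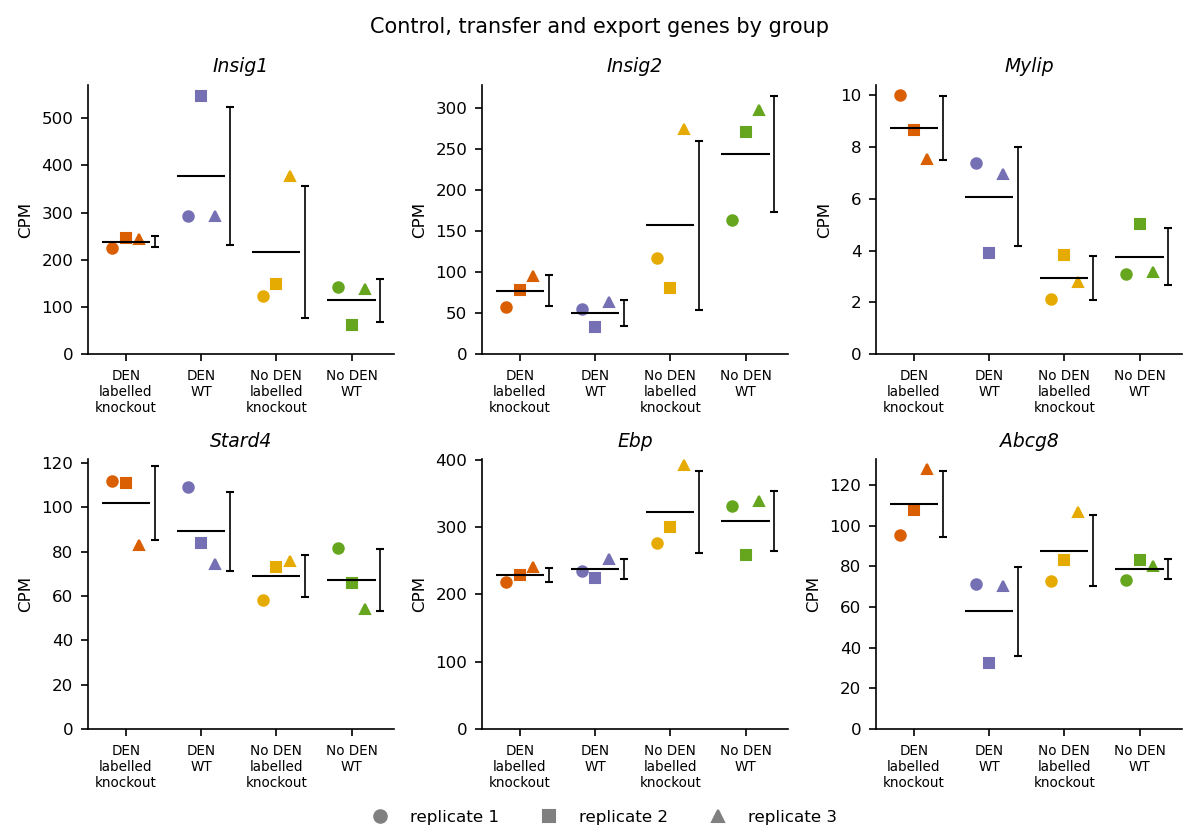
CPM of Insig1, Insig2, Mylip, Stard4, Ebp and Abcg8 in each library (symbols by replicate number) of the 4 groups, with the group mean (line) and SD (bar, n = 3). Insig2 and Ebp sit lower in the DEN groups, and Ebp shows no overlap, with 219 to 253 CPM with DEN and 258 to 392 CPM without; Mylip sits highest in DEN labelled knockout livers.

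Mylip (chr13:45389742-45411940), a ubiquitin ligase that marks lipoprotein receptors for degradation, rose with DEN. It had 10, 8.65 and 7.54 CPM in DEN labelled knockout livers and 7.38, 3.91 and 6.95 CPM in DEN WT livers. In mice without DEN it had 2.15, 3.83 and 2.8 CPM in labelled knockout livers and 3.11, 5.03 and 3.17 CPM in WT livers. The DEN labelled knockout libraries lay above all 9 others, while in WT the lowest DEN library, replicate 2, lay among the No DEN values. In TPM that library, at 2.55 TPM, lay above the No DEN WT libraries, at 1.17 to 2.23 TPM. The mean DEN effect on Mylip was 1.13 ± 0.21 (edgeR adjusted p = 0.0106), and it passed in all 21 alternatives, between 1.04 and 1.38. Within labelled knockout livers Mylip averaged 8.73 ± 1.23 CPM with DEN and 2.92 ± 0.846 CPM without (SD, n = 3 each), a log2 fold change of 1.58 ± 0.31 that missed the threshold (edgeR adjusted p = 0.0619). Without DEN WT replicate 2, the same 1.58 passed (edgeR adjusted p = 0.0121; range over 22 alternatives 2.38e-04 to 0.213). In WT livers Mylip differed by 0.69 ± 0.30 (edgeR adjusted p = 0.158). The difference between the DEN effects was 0.89 ± 0.42 (edgeR adjusted p = 0.735). Mylip had 56 to 340 counts per library, few beside most members, which limits the precision of its values.

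Stard4, a carrier that moves cholesterol between membranes, rose with DEN by a smaller amount. It had 112, 111 and 82.9 CPM in DEN labelled knockout livers and 109, 84.1 and 74.6 CPM in DEN WT livers. Without DEN it had 58.2, 73.0 and 75.7 CPM in labelled knockout livers and 81.8, 65.9 and 54.0 CPM in WT livers. In CPM, the labelled knockout groups did not overlap and the WT groups did. In TPM, the WT groups did not overlap either, at 18.4 to 29.4 TPM with DEN and 11.2 to 16.5 TPM without. The mean DEN effect on Stard4 was 0.48 ± 0.14 (edgeR adjusted p = 0.0428). The call was lost in 8 of 21 alternatives, each of which left out 1 library: No DEN WT replicate 2 or 3, any No DEN labelled knockout library, DEN WT replicate 1, or DEN labelled knockout replicate 1 or 2. Adjusted p ran between 0.00646 and 0.107 over the 21, and the log2 fold change between 0.40 and 0.75.

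Abcg5 and Abcg8 encode the partners of a single pump that moves sterols into bile, and their annotated spans overlap at chr17:84676302-84683011, so reads there cannot be told apart without a strand setting. Abcg5 had 87.5, 99 and 114 CPM in DEN labelled knockout livers and 79.1, 19.6 and 76.2 CPM in DEN WT livers. Abcg8 had 95.7, 108 and 128 CPM in DEN labelled knockout livers and 71.2, 32.7 and 70.2 CPM in DEN WT livers. In both genes, every DEN labelled knockout library lay above every DEN WT library, and DEN WT replicate 2 was the lowest of all 12 libraries. Without DEN, Abcg5 had 70.9, 75.4 and 111 CPM in labelled knockout livers and 69.5, 64.4 and 69.2 CPM in WT livers. Without DEN, Abcg8 had 72.7, 83.4 and 107 CPM in labelled knockout livers and 73.3, 83.1 and 80.0 CPM in WT livers. Here Abcg5 showed no overlap in CPM and Abcg8 did, while in TPM both overlapped. With DEN, the log2 fold change of the knockout label was 0.93 ± 0.27 for Abcg8 (edgeR adjusted p = 0.347) and 0.78 ± 0.40 for Abcg5 (edgeR adjusted p = 0.527). Without DEN WT replicate 2 these were 0.65 ± 0.17 for Abcg8 and 0.38 ± 0.18 for Abcg5. Abcg8 passed in 1 of 22 alternatives, limma-voom with library quality weights, at 0.66 (range of adjusted p over the 22 from 0.010 to 0.796).

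Among the enzymes, single libraries stood out. The summed CPM of the 19 enzymes was 4106 in DEN WT replicate 2 and 3393 in No DEN labelled knockout replicate 3, against 1350 to 2431 in the other 10 libraries. Summed in TPM, the enzymes stood at 4261 and 1856 TPM, against 888.4 to 1765 TPM in the other 10, so the second library stood out little. DEN WT replicate 2 held the highest CPM of 8 of 27 members, against 26.2% of all genes. No DEN labelled knockout replicate 3 held the highest CPM of 11 of 27 members, against 12.2% of all genes. Among the 11 libraries other than DEN WT replicate 2, it held the highest CPM of 17 members, against 15.0% of all genes. No DEN WT replicate 2 held the lowest CPM of 9 members, against 6.20% of all genes. These ranks depend on the scale. In TPM, Hmgcs1 was 231 in DEN WT replicate 2 and 169 in No DEN labelled knockout replicate 3, while Nsdhl was 54.0 and 59.4. The clock genes are relevant background, since cholesterol synthesis is known to follow the daily feeding rhythm. The 16 clock genes summed to 307.5 to 473.1 TPM with DEN and to 157.2 to 311.5 TPM without. No DEN labelled knockout replicate 3 had the lowest sum of the 12. A sum hides opposite directions. For the mean DEN effect, edgeR called 3 clock genes higher (Cry1, Per2 and Bhlhe40) and 4 lower (Arntl, Clock, Npas2 and Nr1d1), against 16.5% of all genes. The hour of collection is not given, and the part of clock genes in the library differences and DEN comparisons was not tested.

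At the entry of the pathway, Hmgcs1 (chr13:119690351-119708260), which makes HMG-CoA, had 142, 177 and 143 CPM in DEN labelled knockout livers and 78.6, 425 and 87.8 CPM in DEN WT livers. In mice without DEN it had 139, 66.5 and 530 CPM in labelled knockout livers and 118, 82.4 and 142 CPM in WT livers. DEN WT replicate 2 was 5.10 times the mean of its group's other libraries, and No DEN labelled knockout replicate 3 was 5.16 times that of its own. The groups overlapped in every comparison. The log2 fold change of Hmgcs1 with DEN in WT livers was 0.79 ± 0.76 (edgeR adjusted p = 0.498), and without DEN WT replicate 2 it turned to -0.45 ± 0.67. Acat2, which joins acetyl-CoA units, lay at 67.2 to 109 CPM in the 6 DEN libraries and at 46.7 to 101 CPM in the 6 No DEN libraries, with a mean DEN effect of 0.48 ± 0.17 (edgeR adjusted p = 0.0717). Acat2 has a close relative, Acat3, and the counting may have split reads between them. Mvk, Pmvk and Mvd, which phosphorylate and decarboxylate mevalonate, were called in no comparison by edgeR with TMM over all 12 libraries; DESeq2 called Pmvk and Mvd higher with DEN in WT (adjusted p = 0.0490 and 0.0371), and quality weights called both for the mean DEN effect. Mvk lay between 11.5 and 23.8 CPM and Pmvk between 12.9 and 47.6 CPM, and Mvd spread most, between 3.40 and 41.5 CPM.

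In the isoprenoid steps, Fdps (chr3:89093588-89101967), which makes farnesyl diphosphate, had the highest median TPM over the 12 libraries, although Ebp exceeded it in TPM in all 3 No DEN WT libraries. It had 218, 357 and 209 CPM in DEN labelled knockout livers and 241, 1113 and 228 CPM in DEN WT livers. Without DEN it had 255, 159 and 384 CPM in labelled knockout livers and 136, 130 and 169 CPM in WT livers. All DEN WT libraries lay above all No DEN WT libraries, and DEN WT replicate 2 was 4.74 times the mean of its group's others. The log2 fold change of Fdps with DEN in WT livers was 1.86 ± 0.58 (edgeR adjusted p = 0.0809), and without that library 0.70 ± 0.32. Idi1, the isomerase before it, lay between 55.2 and 189 CPM. Ggps1, which makes the longer geranylgeranyl diphosphate, was steady at 7.6 to 11 CPM in all 12 libraries.

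For squalene and lanosterol formation, Sqle (chr15:59315092-59331193), the monooxygenase that is a known control point late in the pathway, had 42.0, 50.6 and 24.7 CPM in DEN labelled knockout livers and 53.2, 164 and 27.5 CPM in DEN WT livers. Without DEN, Sqle had 92.0, 28.1 and 66.5 CPM in labelled knockout livers and 29.9, 24 and 22.7 CPM in WT livers. The No DEN WT libraries lay close together, and in CPM each of the other 3 groups spread more widely and overlapped them. In TPM, only the No DEN labelled knockout group overlapped them. With DEN, Sqle differed by -0.67 ± 0.59 (log2) in labelled knockout livers, at an edgeR adjusted p of 0.583. In WT livers it differed by 1.67 ± 0.60, at an edgeR adjusted p of 0.107. Lss (chr10:76531565-76557139), which closes the sterol rings, had 40.9, 57.8 and 47.1 CPM in DEN labelled knockout livers and 49.1, 133 and 49.3 CPM in DEN WT livers. Without DEN, Lss had 50, 30.1 and 70.7 CPM in labelled knockout livers and 25.0, 24.9 and 30.0 CPM in WT livers. In CPM, the 3 No DEN WT libraries lay below all 9 others, by 30.0 against 30.1 CPM at the closest. In TPM, No DEN WT replicate 2 (5.79 TPM) lay above No DEN labelled knockout replicate 2 (5.20 TPM). The log2 fold change of Lss with DEN in WT livers was 1.53 ± 0.40 (edgeR adjusted p = 0.0596), and without DEN WT replicate 2 it was 0.89 ± 0.28 (edgeR adjusted p = 0.0940; range over 22 alternatives 0.00514 to 0.203). Fdft1, the squalene synthase, lay between 64.4 and 176 CPM, and its annotated span overlaps that of Ctsb.

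**Figure D3:**
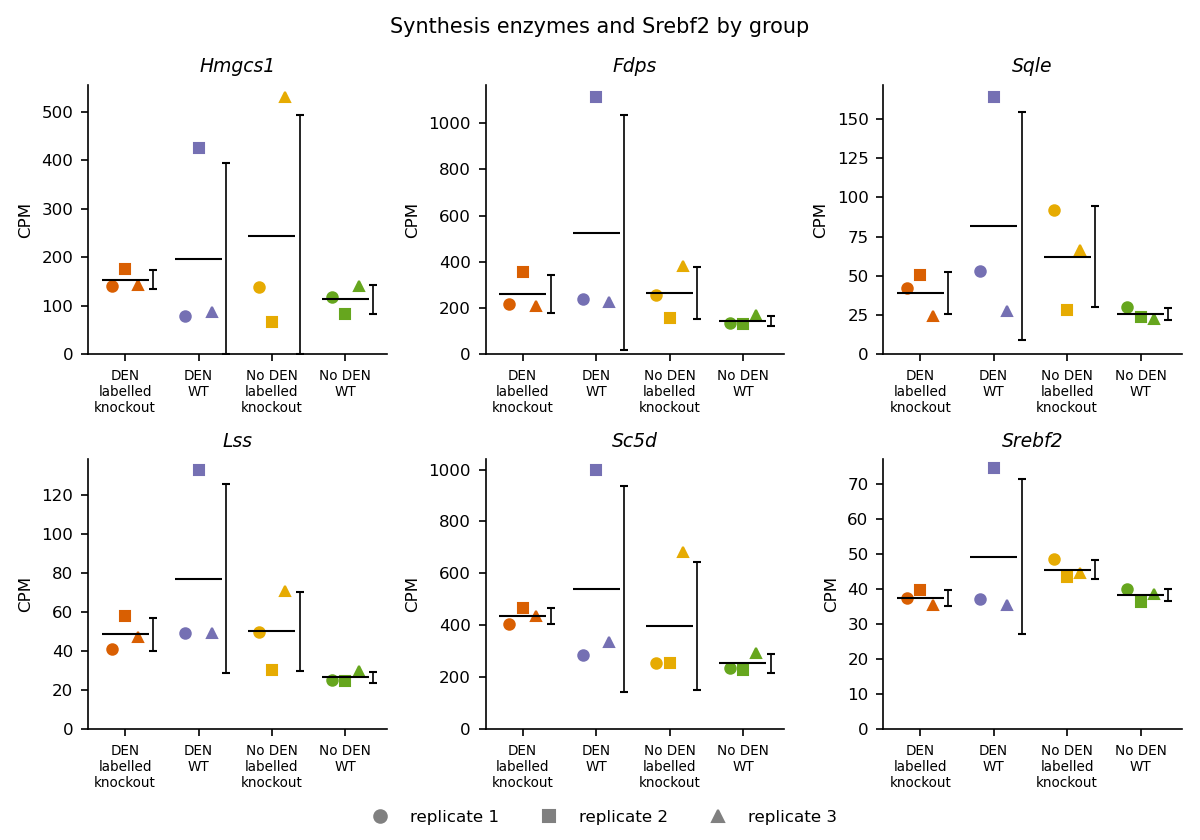
CPM of Hmgcs1, Fdps, Sqle, Lss, Sc5d and Srebf2 in each library (symbols by replicate number) of the 4 groups, with the group mean (line) and SD (bar, n = 3; bar ends below 0 are not drawn). DEN WT replicate 2 is the highest library for Fdps (1113 CPM), Sqle (164 CPM), Lss (133 CPM), Sc5d (997 CPM) and Srebf2 (74.8 CPM), and No DEN labelled knockout replicate 3 is the highest for Hmgcs1 (530 CPM).

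After lanosterol, Ebp (chrX:8185329-8193512), the sterol isomerase, was lower with DEN on the TMM scale. It had 219, 229 and 240 CPM in DEN labelled knockout livers and 235, 225 and 253 CPM in DEN WT livers. In mice without DEN it had 277, 300 and 392 CPM in labelled knockout livers and 331, 258 and 339 CPM in WT livers. In CPM, all 6 DEN libraries lay below all 6 No DEN libraries. On that scale, Ebp was the 1 member of 27 without overlap in either direction, against 9.82% of all genes (4.79% lower with DEN). In TPM the ranges of Ebp overlapped, at 199 to 272 TPM with DEN and 176 to 272 TPM without. Other members lay apart in TPM, all higher with DEN. Mylip had 2.55 to 4.93 TPM with DEN and 0.740 to 2.23 TPM without. Stard4 had 18.4 to 29.6 and 10.7 to 16.5 TPM, and Hsd17b7 had 11.9 to 16.8 and 8.41 to 11.8 TPM. Mean TPM of Ebp was 206 with DEN and 220 without in labelled knockout livers, and 229 and 227 in WT livers. The mean DEN effect on Ebp was -0.44 ± 0.12 (edgeR adjusted p = 0.0344). The call was lost in 9 of 21 alternatives, with adjusted p between 0.00151 and 0.313 over the 21: under library size scaling, where the effect was -0.17, and without No DEN WT replicate 1 or 3, No DEN labelled knockout replicate 2 or 3, DEN WT replicate 1 or any DEN labelled knockout library. Sc5d, the desaturase that acts next, lay at 286 to 997 CPM with DEN and at 227 to 683 CPM without, with a mean DEN effect of 0.61 ± 0.35 (edgeR adjusted p = 0.226). Tm7sf2, a sterol reductase, was lowest in DEN WT replicate 2 at 36.0 CPM, against 105 to 167 CPM in the other 11 libraries. Cyp51, which removes a methyl group of lanosterol, lay between 79.9 and 187 CPM, and Hsd17b7, a ketosteroid reductase, between 34.5 and 55.8 CPM, and edgeR with TMM over all 12 libraries called neither in any comparison. Hsd17b7 was called higher for the mean DEN effect with library size scaling (adjusted p = 0.0229) and with quality weights (adjusted p = 0.0156).

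Nsdhl (chrX:72918521-72958528), a dehydrogenase of sterol demethylation, had the smallest p of any member for the knockout label without DEN. With DEN it had 63.4, 85.3 and 62.6 CPM in labelled knockout livers and 62.2, 59.4 and 54.6 CPM in WT livers. It had 77.9, 60.5 and 113 CPM in No DEN labelled knockout livers and 54.4, 33.9 and 42.5 CPM in No DEN WT livers. In CPM, the labelled knockout libraries lay above the WT libraries both with and without DEN, by 62.6 against 62.2 CPM at the closest. In TPM this held without DEN. With DEN the groups overlapped in TPM, at 42.5 to 57.0 TPM in labelled knockout and 35.0 to 54.0 TPM in WT. For the label, Nsdhl differed by 0.26 ± 0.24 (log2) in DEN livers, at an edgeR adjusted p of 0.693. In mice without DEN it differed by 0.94 ± 0.24, at an unadjusted edgeR p of 0.00233 and an adjusted p of 1. Averaged over both, it was 0.60 ± 0.17 (edgeR adjusted p = 0.662) and passed in none of the 21 alternatives. Dhcr7, which makes the last reduction to cholesterol, had 120, 72.2 and 124 CPM in No DEN labelled knockout livers and 43.5, 49.7 and 69.3 CPM in No DEN WT livers, which did not overlap. Its log2 fold change for the label without DEN was 0.96 ± 0.29 (edgeR adjusted p = 1). Msmo1, the methyl oxidase, lay between 49.3 and 164 CPM.

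Within labelled knockout livers, DEN came with no common direction in the enzymes by edgeR with TMM. Of the 19, 7 had a positive log2 fold change, with a median of -0.050, against -0.025 over all genes. No member of 27 was called by edgeR, against 0.194% of all genes, while 4 had an unadjusted p under 0.05, against 19% of all genes. DESeq2 called 2 members (6.83% of all genes) and limma-voom none. With library quality weights, limma-voom called 5 members higher and 1 lower (17.5% of all genes). There 16 of 19 enzymes were positive, with a median of 0.56, against -0.0064 over all genes. With library size scaling 14 of 19 were positive, with a median of 0.23, against 0.25 over all genes. In CPM, the groups did not overlap for 4 of 27 members, against 31.4% of all genes. Stard4 and Mylip were higher and Ebp and Srebf2 lower with DEN. In TPM, Srebf2 was higher with DEN and Ebp overlapped. Without No DEN labelled knockout replicate 3, 13 of 19 enzymes were positive and their median turned to 0.14.

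Within WT livers, the difference with DEN pointed up for most enzymes, and edgeR with TMM called none of them. Of the 19, 17 had a positive log2 fold change, with a median of 0.59, against 0.029 over all genes. Insig2 was the 1 member called of 27, against 2.74% of all genes (1.36% lower with DEN), and 12 members had an unadjusted edgeR p under 0.05, against 29.7% of all genes. DESeq2 called 8 members (Lss, Sqle, Pmvk, Fdps, Mvd, Insig1 and Idi1 higher and Insig2 lower), against 15.1% of all genes, and limma-voom with quality weights called 10, against 32.6% of all genes. In CPM, the WT groups did not overlap for 14 of 27 members, 11 of them higher with DEN, against 36.0% of all genes (18.4% higher). In TPM, Ebp and Abcg8 overlapped, and further members, Stard4 and Mylip among them, did not. Without DEN WT replicate 2, 15 of 19 enzymes were positive and their median was 0.29, and no member was called by edgeR, with 3.42% of all genes called.

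**Figure D4:**
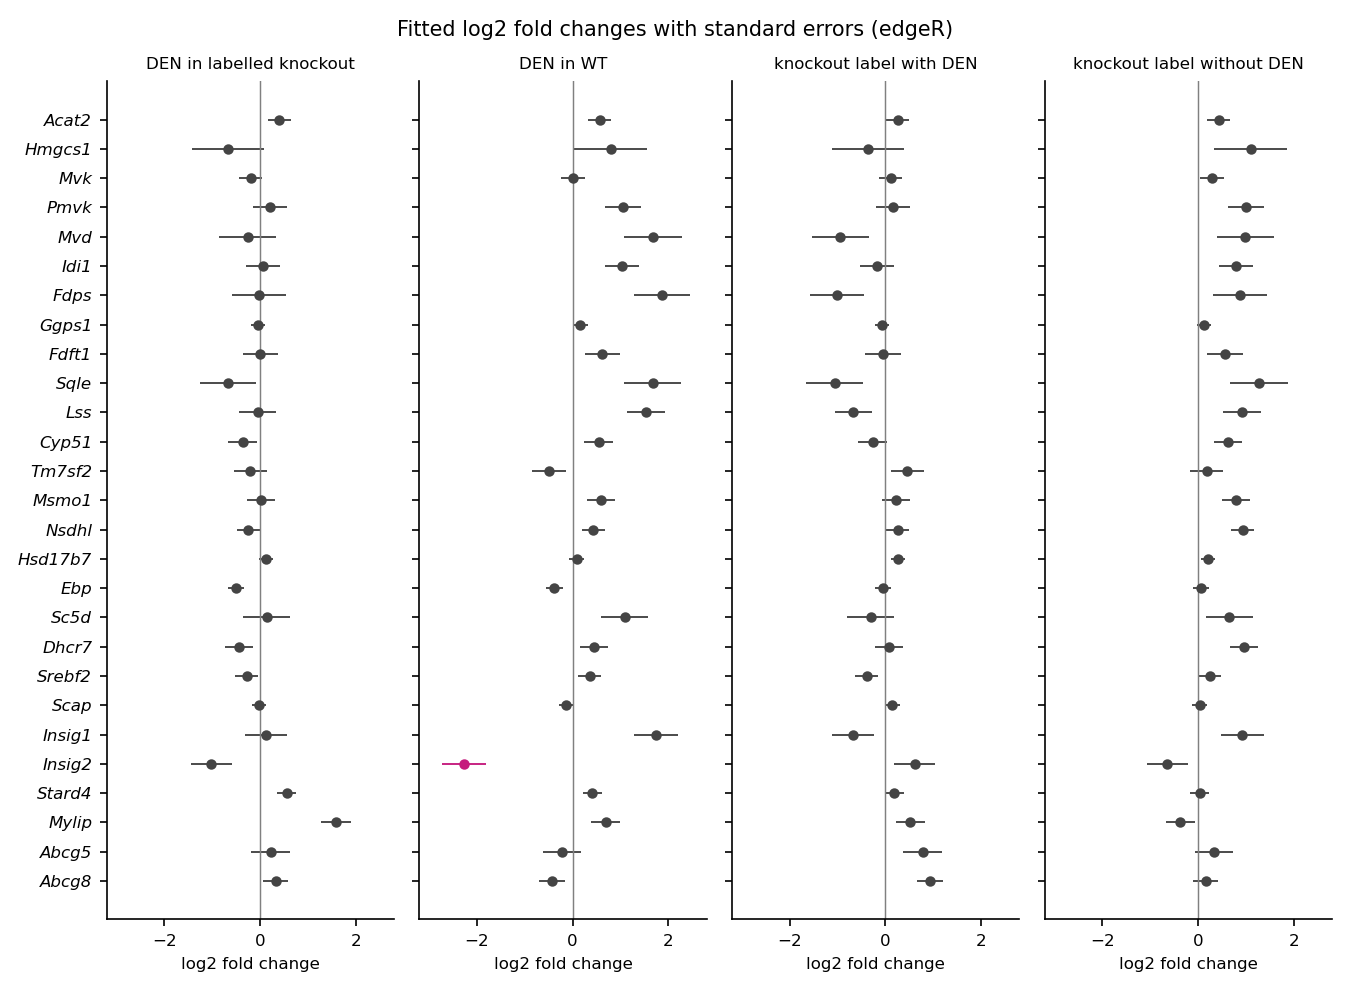
Log2 fold change with its standard error (edgeR, 12 libraries) of 27 members for DEN in labelled knockout, DEN in WT, the knockout label with DEN and the knockout label without DEN. Coloured points have an adjusted p under 0.05, which holds for Insig2 with DEN in WT at -2.27 alone; the points of DEN in WT and of the label without DEN both use the No DEN WT libraries.

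With DEN, the knockout label divided the enzymes by edgeR with TMM. Of the 19, 8 were positive, with a median of -0.054, against -0.0017 over all genes. The 4 measured genes of transfer and export were all positive, between 0.19 and 0.93. No member was called by edgeR, nor any gene (0%), and 1 member, Abcg8, had an unadjusted p under 0.05, against 10.1% of all genes. DESeq2 called no member and 1.24% of all genes. In CPM, the groups did not overlap for 6 members, against 19.6% of all genes (8.22% higher). Hsd17b7, Nsdhl, Abcg5, Abcg8 and Mylip were higher and Insig1 lower in labelled knockout. In TPM, Hsd17b7 and Nsdhl overlapped. Without DEN WT replicate 2, 14 of 19 enzymes were positive and their median turned to 0.16. Under limma-voom with library quality weights, 16 of 19 were positive, with a median of 0.27, against 0.0032 over all genes.

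Without DEN, the knockout label pointed up across the pathway, in a comparison that shares the No DEN WT libraries with that of DEN in WT livers. All 19 enzymes had a positive log2 fold change, between 0.062 and 1.28, with a median of 0.79, against 0.0092 over all genes. No member was called by edgeR, nor any gene (0%), and 6 members had an unadjusted p under 0.05, against 3.70% of all genes: Dhcr7, Lss, Nsdhl, Msmo1, Pmvk and Idi1. DESeq2 called no member and 0.0387% of all genes. In CPM, the groups did not overlap for 5 members, against 10.4% of all genes (4.77% higher). All 5 were higher in labelled knockout: Dhcr7, Lss, Nsdhl, Srebf2 and Abcg5. In TPM, Dhcr7 and Nsdhl stayed apart, and Lss, Srebf2 and Abcg5 overlapped. Without No DEN labelled knockout replicate 3, 17 of 19 enzymes were positive and their median was 0.20. The median of all 27 members was then 0.11, against 0.57 with that library. Under limma-voom with library quality weights, 16 of 19 enzymes were positive, with a median of 0.15, against -0.0029 over all genes.

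The difference between the DEN effects in labelled knockout and WT livers was negative for 17 of 19 enzymes, with a median of -0.84, against -0.024 over all genes. The lowest values were -2.34 ± 0.84 for Sqle and -1.94 ± 0.85 for Mvd, and Lss, with the smallest p, stood at -1.58 ± 0.56 (edgeR adjusted p = 0.735 for all 3). No member was called by edgeR, nor any gene (0%), and 5 members had an unadjusted p under 0.05, against 6.52% of all genes. DESeq2 called no member and 0.101% of all genes. Without DEN WT replicate 2 the enzyme median was -0.51, and without No DEN labelled knockout replicate 3 it was -0.30. With limma-voom and library quality weights it was 0.038, with 10 enzymes positive and 9 negative, so the negative direction did not hold in every setting. Averaged over both treatments, the knockout label gave 0 calls among members and among all genes with edgeR (0%), with 5 members at an unadjusted p under 0.05, against 6.73% of all genes, and 0 members without overlap, against 0.256% of all genes. DESeq2 called no member there and 0.372% of all genes.

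Genes beside the pathway are given for the mean DEN effect, with edgeR calls at an adjusted p under 0.05, against 8.40% of all genes called higher and 8.10% called lower. Of 14 measured genes of fatty acid synthesis, the branch that the related factor SREBP1 governs, 7 rose and 0 fell, with a median of 0.96. Srebf1, which encodes SREBP1, was 306, 387 and 369 CPM in DEN labelled knockout livers and 119, 245 and 221 CPM in DEN WT livers. Without DEN, Srebf1 was 77.2, 121 and 175 CPM in labelled knockout livers and 81.3, 79.7 and 111 CPM in WT livers. Only the lowest DEN library overlapped the libraries without DEN. The mean DEN effect on Srebf1 was 1.31 ± 0.23 (edgeR adjusted p = 0.00876), while Srebf2 stood at 0.041 ± 0.17 (edgeR adjusted p = 0.877).

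Of 22 measured genes of cholesterol transport and esterification, 3 rose and 3 fell with DEN, beside 16.5% of all genes called in either direction. Abcg1, a sterol exporter and LXR target, rose by 1.62 ± 0.27 (edgeR adjusted p = 0.00819), and Soat1, which esterifies cholesterol, rose by 1.33 ± 0.34 (edgeR adjusted p = 0.0269). Both are known to be strong in macrophages, whose markers moved with DEN as given above, and their part in these values was not tested. Of 25 other genes of the sterol pathway, 3 rose (Rnf145, Lbr and Gramd1b) and 2 fell (Aup1 and Gramd1c), beside the same 16.5%. Differences between these lists and other genes were not tested. Rnf145, a ubiquitin ligase of the sterol-sensing machinery, was 26.7, 29.3 and 25.9 CPM in DEN labelled knockout livers and 27.1, 57.3 and 27.7 CPM in DEN WT livers. Without DEN it was 21.3, 17 and 10.3 CPM in labelled knockout livers and 16.6, 10.1 and 11.3 CPM in WT livers. The 6 DEN libraries lay above all 6 others, with a mean DEN effect of 1.16 ± 0.24 (edgeR adjusted p = 0.0139). None of 12 genes of the other isoprenoid branches changed by edgeR, with a median of -0.051.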

How the data were processed

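Liver RNA of 12 mice (4 groups of 3) was sequenced. The authors deposited, per the file headers, expected counts per gene and TPM, in 1 table for each group. The submitters' processing notes name HISAT2 2.2.1, Bowtie2 2.3.4.3, RSEM 1.3.1, DESeq2 1.4.5 and GRCm38.p6. What each tool did, and whether counting used strand, is not stated in these sources. The tables list genes with at least 0.01 TPM in all 3 libraries of a group, and absence from a table is no measured 0. Between 6.58% and 7.39% of expected counts per library were not whole and were rounded. Genes in all 4 tables held at least 99.8% of counts.

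Genes in all 4 tables were tested with edgeR 4.0.16 (quasi-likelihood, TMM, filter by expression) in R 4.3.3, with all 12 libraries in 1 model of 4 groups. P-values were adjusted by the Benjamini-Hochberg method over 12909 genes in each of 7 comparisons: DEN in each genotype label, the label with and without DEN, their interaction, and both averages. A gene was called at an adjusted p under 0.05. CPM used TMM scaling, and the log2 CPM behind the principal components used a prior count of 2. The procedure was tested on simulated data. The 12 libraries differed from one another beyond sampling noise. P-values measure the spread between mice within groups. Alternatives were DESeq2 1.42.0, limma-voom 3.58.1 with and without library quality weights, library size scaling, filters, only the groups compared, a replicate block, and leaving out each library.

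Members and gene lists were chosen with earlier results of these data known. Library values are given for every member that passed in a comparison or had the smallest p in one, for 8 fixed members (Hmgcs1, Sqle, Srebf2, Insig1, Insig2, Npc1l1, Abcg5 and Abcg8), and for others by range or where a result turned on them. Gene names, positions and promoter windows came from RefSeq (GRCm38.p6), which matched 14908 of 14944 gene IDs and all 28 members. Figures were drawn with matplotlib 3.10.9 in Python 3.11.15.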

Additional observations from a re-analysis of the deposited data

How the results depend on the processing

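The 41 results followed here were the pairs of member and comparison with an unadjusted edgeR p under 0.05 in the main fit. Over these and their alternatives, 883 values were computed. Of these, 808 kept their direction and their side of the threshold (or a count within 1.5 times), 26 lost a call, 49 gained one, and 0 reversed. Results picked by a small p seldom reverse, so the 0 does not describe the other pairs. Among those, Hmgcs1 with DEN in WT turned from 0.79 to -0.54 (log2) with limma-voom and quality weights. The number of members called for DEN in WT was 1; it was 6 with library size scaling (10.7% of all genes called), 8 with DESeq2 (15.1%), 10 with limma-voom and library quality weights (32.6%), and 0 with only the groups compared (0%). For DEN in labelled knockout it was 0, and 1 with library size scaling (2.61% of all genes), 2 with DESeq2 (6.83%) and 6 with quality weights (17.5%). For the mean DEN effect it was 4, and 9 with library size scaling (29.9% of all genes), 7 with DESeq2 (25.0%) and 14 with quality weights (42.4%). For the knockout label with DEN it was 0, and 1 with quality weights (3.95% of all genes). The share of all genes called was also higher in these settings, except with only the groups compared. The cause of these shifts was not tested. Leaving out 1 library at a time gave 0 to 5 members for DEN in WT (0% to 7.96% of all genes), 0 to 1 for DEN in labelled knockout (0% to 7.04%) and 2 to 5 for the mean DEN effect (5.03% to 23.5%). The 5 for DEN in WT came without DEN WT replicate 3 and were Lss, Sqle, Fdps and Insig1 higher and Insig2 lower. With a replicate block the counts were 1 for DEN in WT, 4 for the mean DEN effect and 0 in the other comparisons. Deviations of same-numbered libraries from their group means had r between -0.191 and 0.220 over 18 pairs, 4 of them over 0.1. Pairs of other numbers had r between -0.215 and 0.200. With 3 libraries a group, these ranges cannot settle whether same-numbered mice shared a litter or batch. With 3 mice a group, differences within the spread of single libraries were not detectable.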
